A study of Mus musculus with 21 samples.

Results

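The genes described here are *Gja1*, *Gjb2*, *Gjb5* and *Gjb6*, 4 connexin genes expressed in keratinocytes. They were taken by gene symbol from the skin count table, in which they are 4 of 55491 genes. The set was selected on its levels in WT, NL and L skin, so the differences of its genes between skin groups are given as a description without a test. Tests are given in skin for other connexins and pannexins, connexin partner proteins, neighbouring genes and cell type markers. In lymph nodes they are given for connexins and for the partner gene *Cav1*, which was chosen after its value was seen. The gene lists and tests were also chosen with earlier results of these data known, so their counts are not independent of those results.

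Skin was compared between 3 WT libraries, 2 libraries of nonlesional (NL) *Ifnk* TG skin and 4 libraries of lesional (L) *Ifnk* TG skin, all from mice at 12 months of age. All skin libraries are labelled as untreated, so none of this skin had received the UVB course given below for lymph nodes. *Ifnk* TG mice carry a transgene for interferon kappa under the keratin 14 promoter, which is active in the basal layer of the epidermis and the outer root sheath of the hair follicle, and were made on C57Bl/6 and then bred onto the BALB/c background of the WT controls. Inguinal lymph nodes, which drain the skin, came from WT and *Ifnk* TG mice without treatment (NoTx) or 2 weeks after a UVB course of 250 mJ/cm2 per session on 3 days of each of 2 weeks, with 3 libraries in each of the 4 groups. The age of the lymph node donors is not given in the sources used here. The methods place NL skin on the back and areas like those of lesions, and L skin wherever lesions occurred, but do not give the mouse, sex or body site of each library or whether NL and L samples share mice, so p-values measure the spread between these libraries.

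Library totals ran from 40499078 to 56511276 counts in skin and from 27599809 to 36428435 in lymph nodes. *Ifnk* itself was counted 0 times in all 3 WT libraries, 6 and 0 times in the NL libraries and 5 to 14 times in the L libraries, so NL sample 3 (libraries are numbered as in the labels) was at 0 like the WT libraries. Whether transgene reads enter this count is not given in the sources used here. Basal keratinocyte markers such as *Krt5* and *Krt14* summed to between 4296 and 11391 CPM (read counts scaled to the same TMM-adjusted library size) in every skin library, and T cell markers summed to between 1920 and 2400 CPM in every lymph node library. Skeletal muscle markers summed to between 31747 and 43507 CPM in WT skin, 27745 to 33695 in NL skin and 28.9 to 7888 in L skin, so the L libraries also differed from the others in tissue make-up. In such bulk samples, fewer cells of a type and less RNA per cell cannot be told apart.

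Connexins assemble into hemichannels in the plasma membrane, and hemichannels of adjoining cells dock to form gap junctions that pass ions and small molecules between the cells. Keratinocytes carry several connexins whose mix changes with differentiation: GJA1 is widespread in the lower epidermis, whereas GJB2 and GJB6 are low in resting skin between hair follicles and abundant in the follicle, in thick epidermis and at wound edges. Variants of GJB2 and GJB6 are known causes of deafness and of inherited skin disease.

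*Gjb2* and *Gjb6* lie beside each other on the minus strand of chromosome 14 (GRCm38, GENCODE M21), *Gjb2* at chr14:57098600-57104702 and *Gjb6* at chr14:57123303-57133611, with 28909 bases between their start sites. *Gja3*, the lens connexin, is the next connexin on that strand, 46602 bases from the start of *Gjb2*. *Gjb5* lies on the minus strand at chr4:127354809-127358181, and *Gja1* on the plus strand at chr10:56377330-56402513.

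The 250 bases before the start of each of the 4 genes (RefSeq, GRCm38.p6, 5′ to 3′ on the strand of the gene) are printed because the adjacent genes *Gjb2* and *Gjb6* were high in the same libraries and *Gjb5* was not. Capitals mark matches, on either strand, to any of 8 short motifs: AP-1 (TGANTCA), the GC box bound by Sp factors (GGGCGG), the core promoter element bound by TBP (TATAAA), the promoter element bound by the nuclear factor Y complex (CCAAT), the interferon-stimulated response element core or ISRE (a pair of GAAA runs with 2 bases between them), the interferon gamma activated site or GAS (TTCNNNGAA), the TCF/LEF core (CTTTGA) and AP-2 (GCCNNNGGC).
Gjb2, chr14:57104703-57104952: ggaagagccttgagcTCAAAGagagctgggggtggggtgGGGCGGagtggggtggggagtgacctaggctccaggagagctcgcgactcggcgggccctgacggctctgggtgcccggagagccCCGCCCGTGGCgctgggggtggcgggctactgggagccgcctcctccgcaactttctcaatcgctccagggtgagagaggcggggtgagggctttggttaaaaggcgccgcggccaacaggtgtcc
Gjb6, chr14:57133612-57133861: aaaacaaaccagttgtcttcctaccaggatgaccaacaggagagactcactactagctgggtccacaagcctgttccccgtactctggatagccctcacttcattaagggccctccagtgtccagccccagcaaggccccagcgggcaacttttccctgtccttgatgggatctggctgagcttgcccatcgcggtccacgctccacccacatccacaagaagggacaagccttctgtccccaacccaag
Gja1, chr10:56377050-56377299: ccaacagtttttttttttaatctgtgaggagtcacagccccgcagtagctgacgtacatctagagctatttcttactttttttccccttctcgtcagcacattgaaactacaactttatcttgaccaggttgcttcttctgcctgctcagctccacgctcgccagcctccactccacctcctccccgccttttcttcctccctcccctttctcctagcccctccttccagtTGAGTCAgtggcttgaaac
Gjb5, chr4:127358165-127358414: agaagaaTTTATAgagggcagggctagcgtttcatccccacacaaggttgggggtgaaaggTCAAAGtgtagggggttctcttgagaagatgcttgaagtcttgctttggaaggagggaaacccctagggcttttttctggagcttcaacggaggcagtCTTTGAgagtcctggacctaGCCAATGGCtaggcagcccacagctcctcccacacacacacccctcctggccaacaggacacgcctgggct
The *Gjb2* window held 2 GC boxes, a TCF/LEF core and an AP-2 match that overlaps the second GC box. No motif matched in the *Gjb6* window, which says only that these letters are not in it. The *Gja1* window held AP-1 letters that end 13 bases before the start, and the *Gjb5* window held 2 TCF/LEF cores and an AP-2 match that contains a CCAAT box. The *Gjb5* window also held the letters of a TATA box, on the opposite strand and far from the start (positions -243 to -238). Among 32851 promoters of the same length, 32.7% held a GC box, 33.8% a CCAAT box, 13.8% a TCF/LEF core, 13.7% an AP-2 match, 12.4% a TATA box and 6.7% AP-1 letters, while the interferon motifs that none of the 4 windows held, the ISRE core and GAS, were in 3.0% and 7.0%. G and C made up 69.2% of the *Gjb2* window, 56.8% of that of *Gjb6* and 54.4% of that of *Gjb5*, against a median of 52.4%, and that of *Gja1* lay below the median.

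The coding sequences of *Gjb2* (678 bases) and *Gjb6* (783 bases) were identical at 76.7% of aligned bases, and their longest shared run, shown as the longest stretch in which a read would match both genes, was 20 bases long at coding positions 214 to 233 of both.
Gjb2 and Gjb6, shared run: tctcacatccggctctgggc
No 50-base stretch of any *Gjb2*, *Gjb5* or *Gjb6* transcript occurred in an annotated transcript of another gene, and 0.096% of those of *Gja1* did, so near-identical copies were not found for these genes in the annotation.

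*Gjb6*, the beta connexin on which the set is centred, was low outside lesions and far higher inside them. It was counted 27, 10 and 20 times in the WT libraries, 51 and 25 times in the NL libraries and 2335, 2364, 2248 and 3142 times in the L libraries. No L library overlapped a WT or NL library, and the 4 L libraries lay close together. Mean levels were 0.449 CPM ± 0.193 (SD, n = 3) in WT, 0.794 ± 0.256 (n = 2) in NL and 51.7 ± 7.23 (n = 4) in lesional skin. This is a log2 fold change of 6.84 (SE 0.33) between L and WT skin, or 114-fold, and of 6.01 (SE 0.38), or 64.3-fold, between L and NL skin.

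*Gjb2*, the gap junction partner that can form mixed channels with GJB6, showed the largest fold of the 4 genes. It was counted 123, 109 and 67 times in WT, 348 and 125 times in NL and 21371, 18590, 24261 and 41762 times in L libraries. Its level was 2.35 CPM ± 0.610 in WT, 4.86 ± 2.54 in NL and 533.7 ± 157.5 in lesional skin. The log2 fold change was 7.82 (SE 0.45) between L and WT skin, or 227-fold, and 6.77 (SE 0.52) between L and NL skin, or 109-fold.

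*Gja1*, the most widespread connexin of the body, was abundant in every skin library and higher again in lesions. It was counted 3783, 3493 and 4709 times in WT, 6754 and 4408 times in NL and 26640, 34480, 27943 and 56052 times in L libraries. Its level was 95.2 CPM ± 18.5 in WT, 118.6 ± 14.8 in NL and 740.3 ± 234.9 in lesional skin, with no overlap between L libraries and the others. The log2 fold change was 2.96 (SE 0.28), or 7.77-fold, between L and WT skin and 2.64 (SE 0.33), or 6.24-fold, between L and NL skin.

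*Gjb5*, an epidermal connexin of the differentiating layers, did not share this pattern. It was counted 2224, 1827 and 1667 times in WT, 3791 and 2901 times in NL and 4491, 2510, 2416 and 2388 times in L libraries. Its level was 45.1 CPM ± 4.98 in WT, 71.8 ± 0.924 in NL and 60.0 ± 16.5 in lesional skin. The L libraries ran from 43.0 to 81.8 CPM and overlapped both other groups, with a log2 fold change of 0.41 (SE 0.20) against WT and -0.26 (SE 0.22) against NL skin. The sign of the second value turned to 0.45 when libraries were scaled to basal keratinocyte genes.

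**Figure D1:**
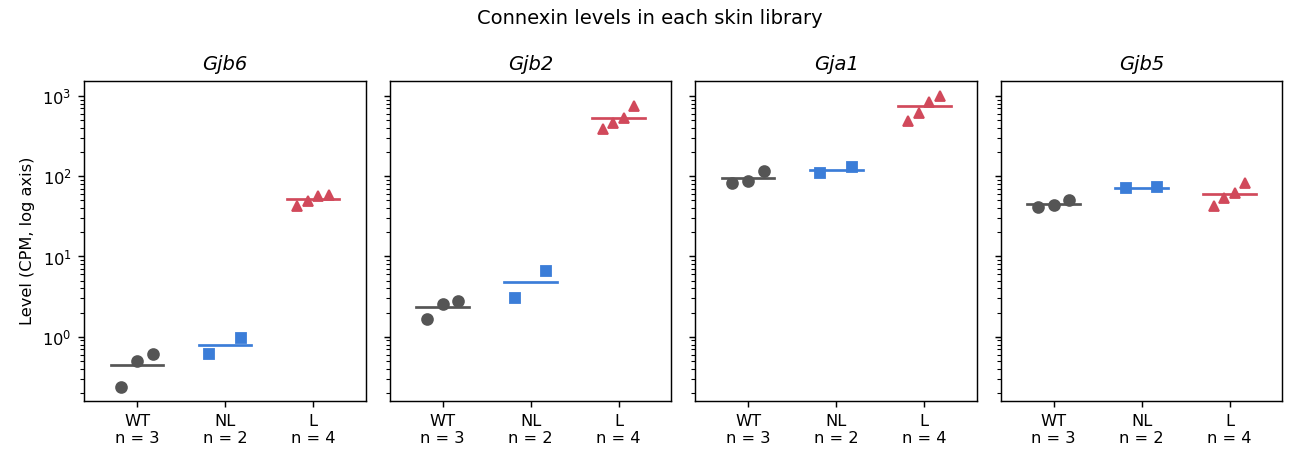
Level of each connexin in each skin library (CPM on a log axis, points) with the group mean (line) for WT (n = 3), NL (n = 2) and L (n = 4) skin. Gjb6, Gjb2 and Gja1 lie higher in all 4 L libraries than in any WT or NL library, and Gjb5 overlaps.

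In the L against WT comparison 3 of the 4 genes had every L library above every WT library, as did 26.0% of the 19101 genes tested, and in the L against NL comparison the same 3 genes did, against 24.7% of genes. At an adjusted p under 0.05 (edgeR's quasi-likelihood test with Benjamini-Hochberg adjustment over all genes) 23.0% of genes were higher and 20.2% lower in L than in WT skin, and 13.2% were higher and 11.8% lower in L than in NL skin. Since the 4 genes were chosen with these differences known, nothing is read from their count.

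Between NL and WT skin the differences of *Gjb2*, *Gjb6* and *Gja1* were smaller than in the lesional comparisons. The log2 fold change was 1.05 (SE 0.39) for *Gjb2*, 0.83 (SE 0.35) for *Gjb6*, 0.67 (SE 0.23) for *Gjb5* and 0.32 (SE 0.30) for *Gja1*. Both NL libraries lay above all 3 WT libraries for *Gjb2* and *Gjb5*, as they did for 18.6% of genes tested, and overlapped them for *Gjb6* and *Gja1*. The *Gjb2* value fell to 0.38 without NL sample 2, and that of *Gja1* turned to -0.24 with scaling to basal keratinocyte genes. No gene passed the adjusted threshold in this comparison (0%) with edgeR, 1465 genes had an unadjusted p under 0.05, and DESeq2 called 80 genes.

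Within lesions the 4 genes differed in how they varied between libraries. *Gjb6* was the least variable across the L libraries, with a coefficient of variation of 13.97%, against 27.4% for *Gjb5*, 29.5% for *Gjb2* and 31.7% for *Gja1*. L sample 7 had the most *Gjb2* (752.5 CPM) and *Gja1* (1010 CPM) and the least *Gjb5* (43.0 CPM), and L sample 4 had the least *Gjb2* (389.2 CPM), *Gja1* (485.1 CPM) and *Gjb6* (42.5 CPM) and the most *Gjb5* (81.8 CPM). Over all 9 skin libraries, the profiles of *Gjb2* and *Gjb6* on the log2 CPM scale, each centred on its mean, differed by a root mean square of 0.65, and those of *Gjb2* and *Gjb5* by 3.67, the smallest and the largest of the 6 pairs.

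On a per-length scale, CPM per kb of the longest coding transcript, the order of the 4 connexins differed between healthy and lesional skin. In WT skin *Gja1* (29.9 ± 5.80) and *Gjb5* (26.2 ± 2.89) led and overlapped, with *Gjb2* at 0.977 ± 0.254 and *Gjb6* at 0.213 ± 0.0918. In L skin *Gja1* (232.7 ± 73.8) and *Gjb2* (221.8 ± 65.5) led and did not differ beyond their spread. With the length of all annotated exons in its place neither pair stayed level, since *Gja1* then took 8.67% of the summed connexin level and *Gjb5* 24.0% in WT skin, and *Gja1* 13.7% and *Gjb2* 42.6% in L skin. With the longest coding transcript, *Gjb5* (34.9 ± 9.56) and *Gjb6* (24.6 ± 3.43) followed in L skin and overlapped. With this length, and despite its large fold, *Gjb6* reached in lesions about the level per length that *Gjb5* had in WT skin. All annotated exons of *Gjb6* are longer (2674 against 2105 bases) and those of *Gjb5* are not (1721 bases both ways). With that length *Gjb6* therefore lies lower against *Gjb5*.

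The summed level of all connexins per length was 134.5 ± 13.01 CPM per kb in WT, 190.6 ± 3.93 in NL and 685.4 ± 115.7 in lesional skin. *Gjb2* made up 0.723% ± 0.158 of it in WT, 1.05% ± 0.531 in NL and 32.1% ± 5.64 in lesional skin, and *Gja1* 22.5% ± 5.68, 19.5% ± 2.04 and 33.3% ± 5.17. *Gjb6* made up 0.157% ± 0.0592, 0.197% ± 0.0597 and 3.603% ± 0.216. The share of *Gjb5* was 19.5% ± 0.473 in WT, 21.9% ± 0.170 in NL and 5.35% ± 2.31 in lesional skin, although its own levels in L and WT libraries overlapped. As given above, the order of these shares depends on the length used.

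**Figure D2:**
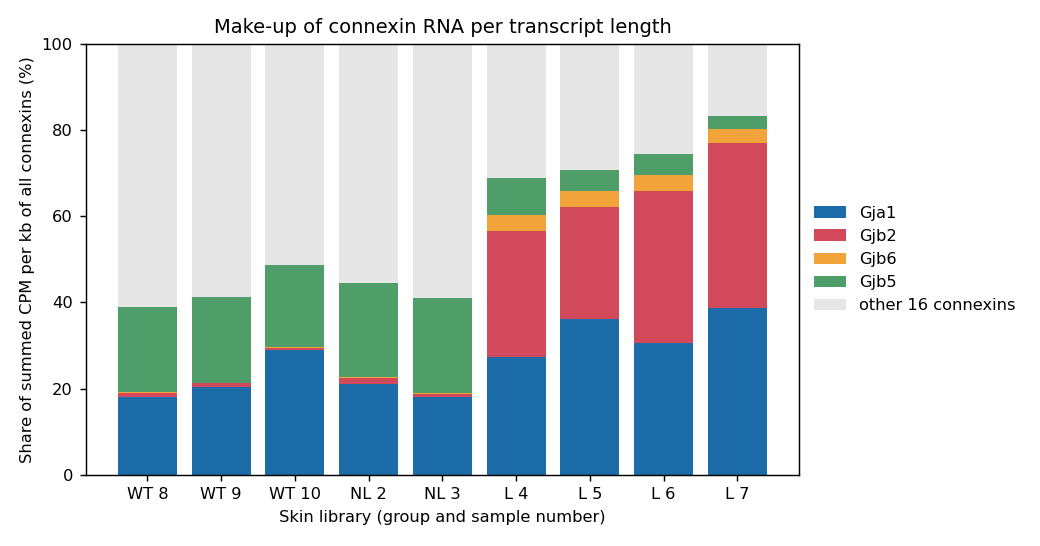
Share of each connexin in the summed CPM per kb of all connexins (%, stacked bars) in each skin library, labelled by group and sample number. Gja1 and Gjb2 together fill most of the L bars, while Gjb2 is a thin band in the WT and NL bars.

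The remaining connexins show how far the pattern extends in the family. Of the 16 other connexins, 10 were tested, and in L against WT skin 4 of these were higher and 2 lower (adjusted p under 0.05, 43.1% of all genes tested in either direction). The median log2 fold change of the 10 was 0.08, against 0.06 over all genes tested. In L against NL skin 3 were higher and none lower (25.0% of genes in either direction), of which 1, *Gja3*, was left without NL sample 2 or without NL sample 3. In NL against WT skin edgeR and DESeq2 called 0 of 10, with 3 at an unadjusted p under 0.05. *Gjd2*, *Gjd4*, *Gja10* and *Gje1* had 0 counts in every skin library, which allows up to 3 counts each, or 0.0742 CPM in the library with the largest such limit.

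*Gja3*, the lens connexin beside *Gjb2*, was nearly absent outside lesions. It was counted 3, 0 and 0 times in WT, 2 and 1 times in NL and 741, 919, 833 and 1628 times in L libraries. Every L library stood far above the others (edgeR adjusted p = 6.03e-05 against WT and 0.000459 against NL). Only the L libraries held enough *Gja3* counts to pass the filter. It was thus tested because it was high there, and these p-values are no independent support. Because the other groups held so few counts, the size is given as the ratio of summed counts per effective library size, 884 against WT (exact 95% interval 302 to 4290) and 651 against NL (223 to 3159), which covers counting error only.

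*Gjb1*, best known from liver and myelin, was higher in L than in WT skin by 1.80 on the log2 scale (SE 0.44, edgeR adjusted p = 0.0114) and than in NL skin by 2.04 (SE 0.53, adjusted p = 0.0236), at 28 to 44 counts per L library. Outside lesions it had 5 to 13 counts per library, so it too passed the filter mainly through the L libraries. Its call against NL was lost without NL sample 2 (adjusted p = 0.105) or NL sample 3 (0.160). *Gjc1* and *Gja5*, connexins of vessel walls and the heart, were lower in L than in WT skin, *Gjc1* by -1.39 (SE 0.28, adjusted p = 0.00469) and *Gja5* by -1.42 (SE 0.49, adjusted p = 0.0431). The *Gja5* call was lost without WT sample 8, 9 or 10, NL sample 2 or 3, or L sample 4, 5 or 7, with adjusted p between 0.0560 and 0.1251, and that of *Gjc1* with scaling to basal keratinocyte genes (adjusted p = 0.0846). Blood endothelial markers were lower in L than in WT skin for 5 of 7 genes, with sums of 284 to 405 CPM in WT, 251 to 310 in NL and 105 to 234 in L libraries, and their part in the lower *Gjc1* and *Gja5* was not tested.

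Of the pannexins, channel proteins unrelated in sequence to connexins, *Panx1* and *Panx3* were tested and both were higher in lesions. *Panx1* was at 17.3 CPM ± 0.610 in WT, 20.7 ± 2.52 in NL and 32.8 ± 6.00 in lesional skin (log2 fold change 0.92, SE 0.16, edgeR adjusted p = 0.00199 against WT, and 0.66, SE 0.18, adjusted p = 0.0273 against NL). *Panx3* was at 4.35 CPM ± 1.65, 4.15 ± 0.135 and 17.2 ± 11.0 (1.98, SE 0.52, adjusted p = 0.0154 against WT, and 2.05, SE 0.61, adjusted p = 0.0402 against NL). The *Panx3* call against WT was lost without WT sample 8 (adjusted p = 0.0563) or 10 (0.0589). Against NL it was lost in 6 of the 9 fits that left out a library, with adjusted p up to 0.197, and that of *Panx1* without NL sample 2 (0.0877), NL sample 3 (0.196) or L sample 6 (0.0538).

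**Figure D3:**
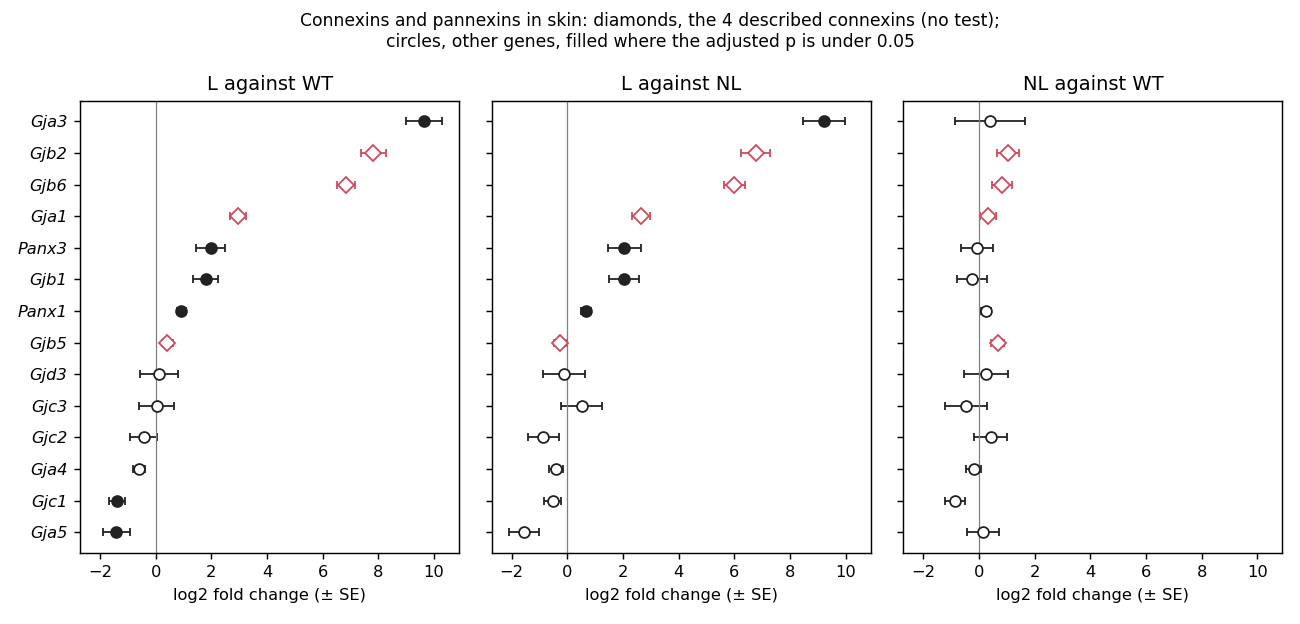
log2 fold change (± SE) of the named connexins and pannexins in skin, in L against WT, L against NL and NL against WT. Open diamonds are the 4 connexins described here, which carry no test, and filled circles are other genes with an adjusted p under 0.05. Gja3, Gjb2, Gjb6 and Gja1 lie furthest right in both lesional comparisons.

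Proteins that bind, anchor, phosphorylate or turn over connexins moved both ways. Of 18 such genes, all tested, 5 were higher and 5 lower in L than in WT skin, against 23.0% of all genes higher and 20.2% lower, with a median log2 fold change of -0.01 against 0.06 over all genes. In L against NL skin 3 were higher and 3 lower (13.2% and 11.8% of all genes), and 0 were called by edgeR without NL sample 2 or without NL sample 3. *Cav1*, the caveolae coat protein, fell from 1271 CPM ± 332.6 to 353.1 ± 135.0 in lesional skin (log2 fold change -1.85, SE 0.32, edgeR adjusted p = 0.00234), and *Ccn3*, a matricellular protein that binds GJA1, from 21.9 CPM ± 10.1 to 8.95 ± 4.46 (-1.29, SE 0.41, adjusted p = 0.0345), although its L and WT libraries overlapped. *Cav1* is also abundant in adipocytes and endothelium, and adipocyte markers were lower in L than in WT skin for 5 of 8 genes (13904 to 22416 CPM in WT, 11562 to 14941 in NL and 1102 to 7234 in L libraries), and their part in the *Cav1* value was not tested.

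Genes around the 4 connexins were tested in the same fit. Of 24 other annotated genes within 250 kb of a start site, connexins left out, 10 were tested. In L against WT skin, where 43.1% of all genes passed, 1 of them did by edgeR, *Tbc1d32* near *Gja1*, which was lower (-0.84, SE 0.19, adjusted p = 0.00854). *Zmym2*, the tested gene of the *Gjb2* and *Gjb6* locus with a known protein, was at 53.4 CPM ± 9.71 in WT, 60.1 ± 3.45 in NL and 54.0 ± 5.43 in lesional skin (0.02, SE 0.14, adjusted p = 0.933), and the pseudogene *Gm8983* was at 0.406 ± 0.229, 0.509 ± 0.287 and 0.363 ± 0.198 (-0.16, SE 0.60, adjusted p = 0.846). These are the tested neighbours of *Gjb2* and *Gjb6* other than connexins, and all their groups overlapped. In L against NL skin, where 25.0% of all genes passed, *Tbc1d32* was lower (-0.80, SE 0.22, adjusted p = 0.0280) and the noncoding *Gm36595* near *Gja1* was higher (3.25, SE 0.71, adjusted p = 0.0127). *Gm36595* had 19 to 46 counts in L, 6 and 1 in NL and 10 to 16 in WT libraries, so this call rests on low NL values, and L against WT did not pass (1.12, adjusted p = 0.110).

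Markers of hair and wound-type keratinocytes differed between the same groups as *Gjb2*, *Gjb6* and *Gja1*. By edgeR, 10 of 10 measured hair shaft genes rose in lesions relative to WT, as did 7 of 8 inner root sheath genes and 8 of 8 wound and stress genes, against 23.0% of all genes. The wound and stress list shares *S100a8* and *S100a9* with the neutrophil list, so the counts of these lists overlap. Hair shaft genes summed to 3.47 to 4.45 CPM in WT, 5.91 to 7.16 in NL and 2523 to 7372 in L libraries, and in WT skin *Krt34* was at 0. Genes this low outside lesions can pass the filter for testing through their L counts alone. Nothing is therefore read from the number of hair shaft or inner root sheath genes called. Inner root sheath genes summed to 97.2 to 129.4, 185.4 to 194.5 and 5432 to 21400 CPM, and wound and stress genes to 475 to 763, 1225 to 1252 and 1838 to 5606 CPM. Melanocyte genes rose for 6 of 6, T cell genes for 5 of 7 and neutrophil genes for 3 of 6 tested. T cell genes summed to 28.1 to 35.2 CPM in WT, 32.4 to 42.3 in NL and 27.1 to 67.8 in L libraries. The lowest of these sums was that of L sample 7, where *Gjb2* and *Gja1* were highest. The rise was not confined to hair and wound lists. Granular layer genes (uppermost living epidermis) rose for 6 of 8 and suprabasal keratinocyte genes for 3 of 7 tested. Outer root sheath and bulge genes rose for 5 of 7 (1 lower), sebaceous gland genes for 4 of 8 (1 lower) and basal keratinocyte genes for 1 of 8 (2 lower). The part of these markers in the connexin levels was not tested.

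Among the L libraries, the sum for the inner root sheath was lowest in sample 4 and highest in sample 7 (5432 and 21400 CPM), as were *Gjb2* and *Gja1*. The granular layer sum, of genes of the uppermost living epidermis, was highest in sample 4 and lowest in sample 7 (6595 and 2299 CPM), as was *Gjb5*, and so was the basal keratinocyte sum (10810 and 4296 CPM). The wound and stress sum was highest in sample 6 and lowest in sample 7 (5606 and 1838 CPM), where *Gjb2* and *Gja1* were highest. Of the other follicle lists, the hair shaft sum was lowest in sample 4 and highest in sample 7 (2523 and 7372 CPM). That of the outer root sheath and bulge was highest in sample 5 and lowest in sample 7 (3320 and 1612 CPM). With 4 libraries no correlation was computed.

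Each connexin was also set against these lists within each library. Relative to basal keratinocyte genes (log2 CPM of the connexin minus the mean log2 of the list, pseudocount 0.05 CPM), *Gjb2* was 7.97 higher in L than in WT skin, *Gjb6* 6.96, *Gja1* 3.11 and *Gjb5* 0.56 higher. Relative to outer root sheath and bulge genes the differences were 6.64, 5.63, 1.77 and -0.77, and relative to wound and stress genes 2.99, 1.97, -1.88 and -4.42. Relative to hair shaft genes all 4 were lower in L than in WT skin, by between -3.46 for *Gjb2* and -10.87 for *Gjb5*. Relative to inner root sheath genes all 4 were also lower, by between -2.15 for *Gjb2* and -9.57 for *Gjb5*. In WT skin the mean log2 was -2.57 to -2.41 for the hair shaft list and -0.34 to -0.09 for the inner root sheath list. Where genes lie near 0 the size of such ratios depends on the pseudocount, and no other pseudocount was run for them. Relative to suprabasal keratinocyte genes *Gjb2* was 7.06, *Gjb6* 6.04 and *Gja1* 2.19 higher in L than in WT skin, and *Gjb5* differed by -0.35. *Gjb2*, *Gjb6* and *Gja1* were thus higher in lesions per unit of basal, suprabasal or outer root sheath RNA. They were lower per unit of hair shaft or inner root sheath RNA, and *Gja1* was also lower per unit of wound and stress RNA.

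**Figure D4:**
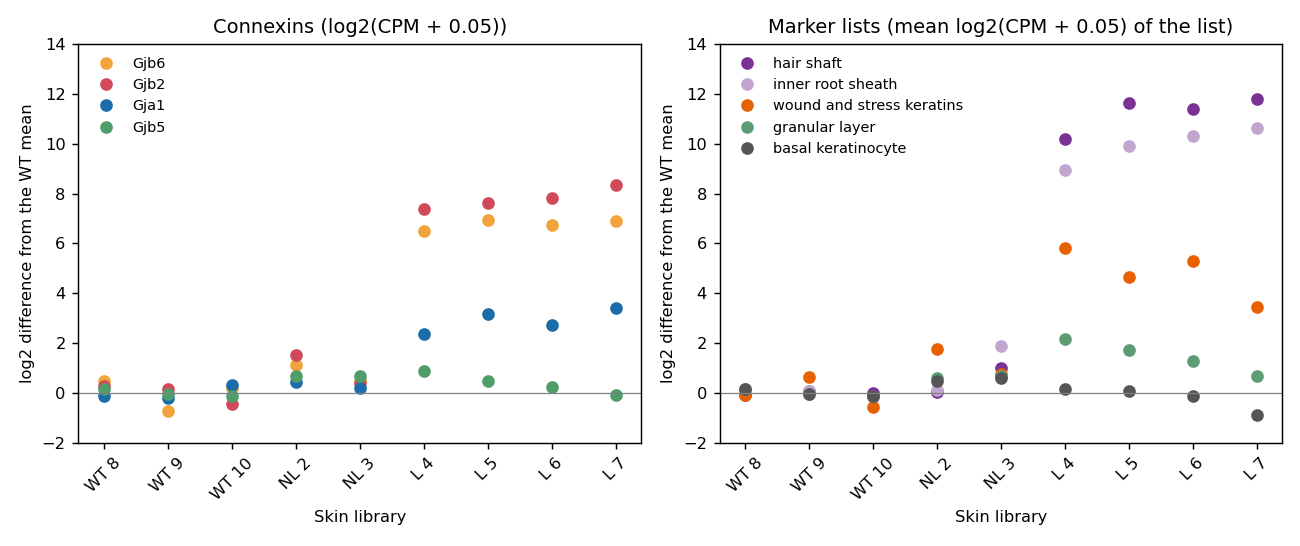
log2 difference of each skin library from the WT mean for the 4 connexins (left, log2 of CPM + 0.05) and for 5 marker lists (right, mean over the genes of a list). Hair shaft and inner root sheath lists are high in the same 4 L libraries as Gjb2, Gjb6 and Gja1, and the basal keratinocyte list and Gjb5 stay near the WT level.

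The protein-coding genes whose skin profile came closest were ranked by the root mean square difference of centred log2 profiles over the 9 skin libraries, among 14010 genes. For *Gjb6* these were *Ly6g6g* (0.26), the forkhead factor *Foxe1* (0.42), *Psors1c2* (0.43), the urate oxidase gene *Uox* (0.48) and *Il1f6* (0.51), which encodes an interleukin 36 cytokine. For *Gjb2* they were *Uox* (0.36), *Tdh* (0.55) and *Tagln3* (0.57), for *Gja1* *Trim59* (0.22), *Srms* (0.24) and *Mxd3* (0.24), and for *Gjb5* *Serpinb8* (0.11), *Camkk1* (0.11) and *Sphk1* (0.11). With a pseudocount of 0.5 CPM in place of 0.05, 1 of the 5 genes named for *Gjb6*, none of the 3 for *Gjb2*, none of the 3 for *Gja1* and all 3 for *Gjb5* stayed among the closest, so the first 3 rankings depend on this setting.

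Lymph nodes carried little RNA of the 4 connexins, and these values did not enter their choice. *Gjb5* had 0 counts in all 12 libraries, which allows up to 3 counts or 0.109 CPM in the library with the largest such limit, and *Gjb6* had 0 to 3 counts, below the filter for testing. *Gja1* was counted 3, 7 and 14 times in WT and 6, 16 and 7 times in *Ifnk* TG nodes without UVB, and 12, 2 and 8 times in WT and 7, 8 and 16 times in *Ifnk* TG nodes after UVB. These groups overlapped throughout, and no *Gja1* comparison passed the test (edgeR adjusted p between 0.892 and 1).

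*Gjb2* was the connexin of the 4 with the most counts in nodes. It was counted 7, 23 and 11 times in WT and 10, 8 and 9 times in *Ifnk* TG nodes without UVB, and 16, 27 and 38 times in WT and 19, 65 and 20 times in *Ifnk* TG nodes after UVB. All 3 *Ifnk* TG libraries after UVB lay above all 3 without it, as was the case for 6.23% of the 16173 genes tested. The log2 fold change with UVB was 2.15 in *Ifnk* TG nodes (SE 0.62, unadjusted p = 0.00396, edgeR adjusted p = 0.315) and 1.04 in WT nodes (SE 0.60, adjusted p = 0.282), and the difference between the genotypes was 1.11 (SE 0.86, adjusted p = 0.850). Without TG UVB sample 11 the value in *Ifnk* TG nodes was 1.19 (adjusted p = 0.648, with a range of 0.0594 to 0.783 over all libraries left out in turn), and that library also held all 58 counts of *Gjb1* found in nodes.

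Among all connexins, 4 were tested in nodes (*Gja1*, *Gjb2*, *Gja4* and *Gjc1*), and edgeR and DESeq2 called 0 of them in every comparison. At an unadjusted edgeR p under 0.05 stood *Gja4* with UVB in WT nodes (log2 fold change -1.39, SE 0.61, adjusted p = 0.170) and between genotypes after UVB (1.63, SE 0.60, adjusted p = 0.673), and *Gjb2* as above. With UVB in WT nodes edgeR called 4.98% of genes tested (805 genes, and DESeq2 2002), and in the other 4 comparisons edgeR called 0 genes (0%). In these, 1507 genes for UVB in *Ifnk* TG nodes, 549 for genotype without UVB, 1131 for genotype after UVB and 881 for the interaction had an unadjusted p under 0.05, and DESeq2 called 137, 2, 19 and 8. Markers of basal keratinocytes such as the integrin genes summed to between 202 and 276 CPM in nodes, and those of the granular layer to at most 0.487 CPM.

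**Figure D5:**
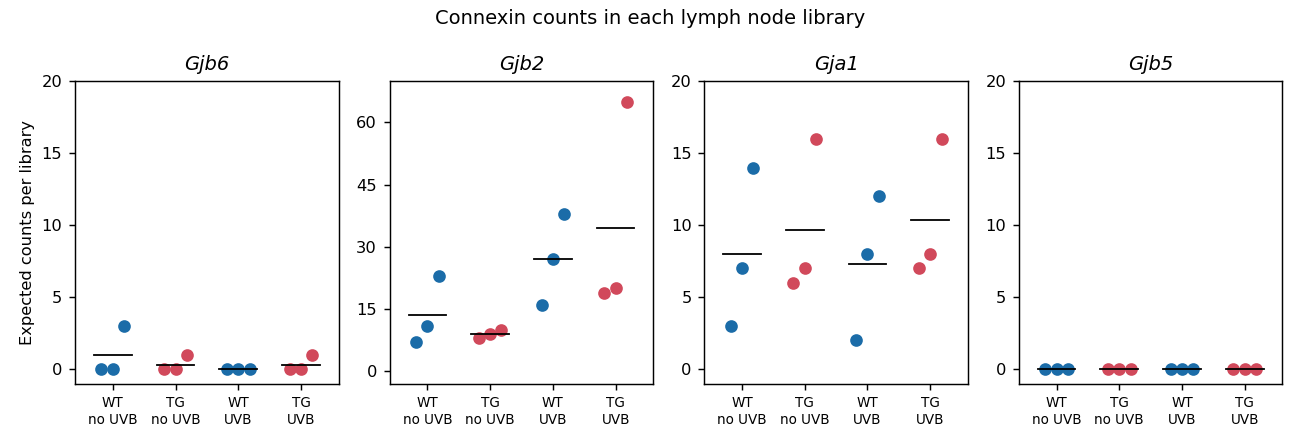
Expected counts of the 4 connexins in each lymph node library (points) with the group mean (line), for WT and Ifnk TG mice without and with UVB (n = 3 each). Gjb2 reaches 65 counts in 1 library, Gja1 at most 16, Gjb6 at most 3, and Gjb5 has 0 throughout.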

How the data were processed

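Poly-A RNA of skin and inguinal lymph nodes was sequenced as 151-base read pairs. The authors trimmed reads with cutadapt 4.8, aligned them to GRCm38 with STAR 2.7.8a, estimated counts per gene with RSEM 1.3.3 and deposited these expected counts, which are whole numbers and not normalized. The annotation release they used is not given in the sources used here. Positions and transcript lengths were added from GENCODE M21 by Ensembl identifier (19079 of the 19101 genes tested in skin matched), and promoter sequences from RefSeq.

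Counts were analysed in R 4.3.3 with edgeR 4.0.16. Genes passing filterByExpr (10 counts in enough libraries and 15 in total) were kept, libraries were scaled by TMM, and 1 model per tissue, over all its groups, was fitted with the robust quasi-likelihood F-test. P-values were adjusted by Benjamini-Hochberg across the genes tested in each comparison, with a threshold of 0.05, and SEs were derived from the F statistic. CPM uses TMM-scaled library sizes. The connexins, gene lists and tests were chosen with earlier results of these data known. Named genes were the 4 connexins, every other connexin or pannexin that passed, the 3 partners with the largest change in L against WT skin, tested neighbours of *Gjb2* and *Gjb6*, and the genes with the closest profiles (mean of at least 1 CPM). *Gm36595*, *Tbc1d32* and *Gja4* were added after their values were seen. Some genes that the rule names are not reported here. Length scaling by the longest coding transcript and the pseudocount of 0.05 CPM were also set after levels had been seen.

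The limit that a count of 0 allows was set at 3 counts, between 0.0541 and 0.0742 CPM in skin and between 0.0811 and 0.109 CPM in lymph nodes; without molecular identifiers it covers counting error only. The fit was checked on simulated counts with known changes in 200 genes, far fewer than were called between L and WT skin. For that comparison 45.9% of log2 changes of 1 and 83.5% of those of 2 were recovered, and 3.57% of calls were false. For UVB in *Ifnk* TG nodes the values were 69.3%, 90.9% and 3.03%. Smaller changes can therefore be missed. Alternatives were DESeq2 1.42.0, RLE and upper-quartile normalization, scaling to basal keratinocyte genes, hair and skeletal muscle genes left out, other filters, compared groups alone, no robust estimation and each library left out in turn.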

Additional observations from a re-analysis of the deposited data

How the results depend on the processing

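Over all alternatives, *Gjb6*, *Gjb2* and *Gja1* kept their direction in L against WT and L against NL skin, with log2 fold changes against WT of 6.52 to 7.14, 7.61 to 8.20 and 2.77 to 3.28. Scaling to basal keratinocyte genes moved the median of all genes by 0.24 (L against WT), 0.79 (L against NL) and -0.55 (NL against WT) on the log2 scale, and the share of calls that were higher from 53.2% to 71.7% and from 52.7% to 94.0%. With it, L against NL values were 6.82 for *Gjb6*, 7.66 for *Gjb2*, 3.53 for *Gja1* and 0.45 for *Gjb5*, NL against WT values were 0.13 for *Gjb5* and -0.24 for *Gja1*, 4 partners were called in L against WT (10 as reported) and no neighbour was (1 as reported). With at least 10 counts in every library 1 other connexin was called in L against NL, since *Gja3* and *Gjb1* were then not tested, and with the compared groups alone 2 partners were. *Gja4* passed in L against WT with DESeq2, with 10 counts in every library, with the compared groups alone and without L sample 7 (adjusted p between 0.0260 and 0.0417). *Gja5* passed in L against NL with DESeq2 (0.0201) and without L sample 6 (0.0207), and failed in L against WT with the compared groups alone (0.0567) and with keratinocyte scaling (0.192). *Panx3* and *Panx1* failed in L against NL with the compared groups alone (0.0752 and 0.0720), and *Panx3* without a filter (0.0723). Where not given, the cause was not tested.

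With each library left out in turn, other connexins called ranged from 5 to 6 in L against WT and from 1 to 4 in L against NL, and partners from 7 to 9 and from 0 to 8. The low values in L against NL, 1 connexin and 0 partners, came without NL sample 2 and equally without NL sample 3, where *Gjb1* (adjusted p = 0.105 and 0.160) was lost and the remaining NL library was assumed to vary like the other groups. Neighbours called ranged from 1 to 2, with 2 without L sample 4. L against NL values ranged from 5.74 to 6.39 for *Gjb6*, 6.34 to 7.44 for *Gjb2*, 2.46 to 2.80 for *Gja1* and -0.45 to -0.13 for *Gjb5*, and NL against WT values from 0.38 to 1.47 for *Gjb2*, 0.44 to 1.13 for *Gjb6*, 0.61 to 0.76 for *Gjb5* and 0.18 to 0.49 for *Gja1*. With UVB in WT nodes edgeR called 805 genes and DESeq2 2002. In nodes no alternative called a connexin, and the adjusted p of *Gjb2* with UVB in *Ifnk* TG nodes ranged from 0.0966 to 0.548, and from 0.0594 to 0.783 with a library left out. The closest-profile rankings and the share by length, chosen after the data were seen, depend on pseudocount and length. No paired analysis was possible because the sources used here do not give the mouse of each library.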

Other observations

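*Cav1*, named above for skin, also differed in lymph nodes, a value chosen after it was seen. It was counted 67 to 101 times in WT nodes without UVB and 1 to 18 times in WT nodes after UVB, a log2 fold change of -3.06 (SE 0.61, edgeR adjusted p = 0.0269). In *Ifnk* TG nodes it was counted 42 to 125 times without and 35 to 66 times after UVB (-0.56, SE 0.53, adjusted p = 0.785), and the difference between the genotypes did not pass (2.49, SE 0.80, adjusted p = 0.848). Fibroblast markers summed to 50.6 to 71.7 CPM in WT nodes without and 15.1 to 40.6 CPM after UVB, and blood endothelial markers to 274 to 324 and 199 to 237 CPM, and their part in the *Cav1* values was not tested.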
